A study of Mus musculus with 4 samples.

Results

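Interferons are secreted signals of infection. Type I interferons bind a receptor made of IFNAR1 and IFNAR2, interferon gamma binds one whose ligand chain is IFNGR1, and both switch on genes through STAT proteins. The type I signal acts through STAT2 and IRF9, which act at the interferon-stimulated response element, while interferon gamma acts mainly through gamma-activated sequences. The genes switched on block viral translation, degrade or sense foreign RNA, and attack the vacuoles of intracellular microbes, and chronic interferon exposure is known to disturb blood progenitors. A list of 37 such genes, from receptors to effectors, was followed here across blood progenitors of wild-type mice and of mice lacking Trib1, a pseudokinase that directs C/EBP proteins to degradation. Of the 37 genes, 35 had a probe set with 1 gene symbol, out of 18193 such genes on the array. Isg15 and Ifi44 had none, so they have no expression values here and enter only the promoter counts.

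The animals were of a mixed C57BL6J/129SV background, and the sorted cells were unstimulated. The 4 groups were granulocyte monocyte progenitors (GMP) and cells labelled MDP, each from wild-type and from Trib1-/- mice. MDP carries the cell type label macrophage dendritic cell, and the usual meaning of the letters is a progenitor of monocytes or macrophages and dendritic cells. Each group was 1 array, so the values have no replicates, and nothing below was put to a statistical test. The sources used here do not give the age of the mice, their number per array or the deleted part of Trib1. Values are RMA values on the log2 scale, differences are log2 differences, and a difference of at least 1 in size is called 2-fold. Each gene is read from its brightest probe set, by the mean of all arrays. The only spread that could be measured is that between probe sets of 1 gene. Its SD was 0.356 for the genotype difference in GMP and 0.360 in MDP, and 0.528 and 0.400 for the difference between progenitors in wild type and knockout. It was taken from 4270 genes with several probe sets whose mean reached the median of the whole table, so weaker probe sets are left out. The spread between animals and sorts is left out too.

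The array medians lay between 3.27 and 3.31. Summed signals of the GMP and the progenitor marker lists followed the cell labels. The summed linear signal of 8 GMP markers was 7527 and 6629 on the wild-type and knockout GMP arrays against 1332 and 1264 in MDP. That of 6 markers of monocyte and dendritic progenitors was 443 and 470 in GMP against 993 and 997 in MDP. Single markers varied: Kit, counted with the GMP markers, read 2.43 and 2.69 in MDP, and Cx3cr1 was only 0.34 and 0.30 higher there. Monocyte markers were also higher in MDP, with sums of 1061 and 1139 against 341 and 345. Those of resident macrophages were 477 in MDP against 134 in GMP in wild type, and 99.9 against 102 in the knockout. The purity of the sorted cells was not tested. The probe sets of Trib1 read higher by 0.15 and 0.34 in knockout GMP and lower by 0.41 and 0.43 in knockout MDP, so they do not check the genotype labels. In sorted bulk samples such as these, fewer cells of a type and less RNA per cell cannot be told apart.

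The sequences just upstream of 5 members are shown for the letters through which interferon signals are read, which 4 of them hold. They are the GTPase genes Igtp, Irgm1 and Gbp3, whose values moved alike over the arrays, Ifit1, a classical type I target that stayed low, and Samd9l, the member furthest apart between the MDP genotypes. Each is the 250 bases before an annotated start in RefSeq on GRCm38.p6, read 5′ to 3′ on the gene's strand. Capitals mark the response element core, which is GAAA, any 2 bases and GAAA again, or the gamma-activated core, TTCNNNGAA, on either strand. Neighbouring matches can overlap.
Igtp, chr11:58199306-58199555, plus strand: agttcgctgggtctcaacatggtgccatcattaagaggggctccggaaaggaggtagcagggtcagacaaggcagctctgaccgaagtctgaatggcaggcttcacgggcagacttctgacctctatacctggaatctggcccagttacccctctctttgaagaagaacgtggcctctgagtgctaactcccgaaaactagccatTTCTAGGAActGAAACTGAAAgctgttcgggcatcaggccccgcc
Irgm1, chr11:48871421-48871670, minus strand: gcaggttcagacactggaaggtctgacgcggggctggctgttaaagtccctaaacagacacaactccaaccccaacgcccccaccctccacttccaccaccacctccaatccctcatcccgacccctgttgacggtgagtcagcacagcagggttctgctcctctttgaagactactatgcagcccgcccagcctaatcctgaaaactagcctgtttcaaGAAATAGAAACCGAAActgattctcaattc
Gbp3, chr3:142559794-142560043, plus strand: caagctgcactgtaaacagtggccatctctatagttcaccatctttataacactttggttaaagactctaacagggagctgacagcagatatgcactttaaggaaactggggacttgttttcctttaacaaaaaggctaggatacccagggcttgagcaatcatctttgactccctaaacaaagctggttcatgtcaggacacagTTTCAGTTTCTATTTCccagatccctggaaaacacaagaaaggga
Ifit1, chr19:34640639-34640888, plus strand: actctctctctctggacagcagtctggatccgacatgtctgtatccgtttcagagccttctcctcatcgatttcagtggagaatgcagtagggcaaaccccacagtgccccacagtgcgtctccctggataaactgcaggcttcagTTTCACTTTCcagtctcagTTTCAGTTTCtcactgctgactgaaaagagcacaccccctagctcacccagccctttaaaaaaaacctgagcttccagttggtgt
Samd9l, chr6:3399572-3399821, minus strand: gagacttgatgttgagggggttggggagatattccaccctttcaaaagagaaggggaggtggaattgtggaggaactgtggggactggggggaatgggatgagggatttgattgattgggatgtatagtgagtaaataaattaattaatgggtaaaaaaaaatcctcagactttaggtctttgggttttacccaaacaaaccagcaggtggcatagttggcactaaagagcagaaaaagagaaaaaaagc

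The promoter table held 28 of the 37 genes, with windows of 300 bases that run 50 bases past the start. The response element core was found in a window of 14 of the 28 (50%), against 3.99% of 27025 genes in the table. TTCNNNGAA was found for 9 of them (32.1%), against 9.55% of all. Irgm1 and Gbp3 each held the response element core in overlapping copies, Igtp held both motifs side by side, and Samd9l held neither in this window. Gbp3 has another annotated start, not shown, whose window held neither motif. A match describes letters and is not a measured site. Of the measured members, 13 held the response element core and 13 did not, and their median genotype differences were 0 and 0.10 in GMP and 0.23 and 0.18 in MDP. Igtp and Irgm1 are among those with the core and Samd9l among those without.

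The first measurement was how far the interferon programme was detected at all in these unstimulated cells. The median of the whole table, 3.29, was used as the mark of low signal. Of the 35 members 14 reached it on all arrays, 8 on some and 13 on none, so 37.1% of the members stayed below it throughout, close to the 35.9% of all named genes. The receptors were above it on every array, as were Irf1, Adar, Bst2, Eif2ak2, Rsad2, Trim25, Ifih1, Parp9, Parp14, Gbp3 and Mx1. The 13 that never reached it are mostly strongly inducible type I targets: Ifit1, Ifit3, Usp18, Rtp4 and Xaf1, 4 of the 5 oligoadenylate synthetase genes, the factor gene Irf7, the sensor gene Dhx58, and Mx2 and Gbp2. Stat2, Irf9, Ifit2, Oas1a, Zbp1, Samd9l, Igtp and Irgm1 crossed it on some arrays. For the 13 genes, differences lie between values near the background.

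**Figure D1:**
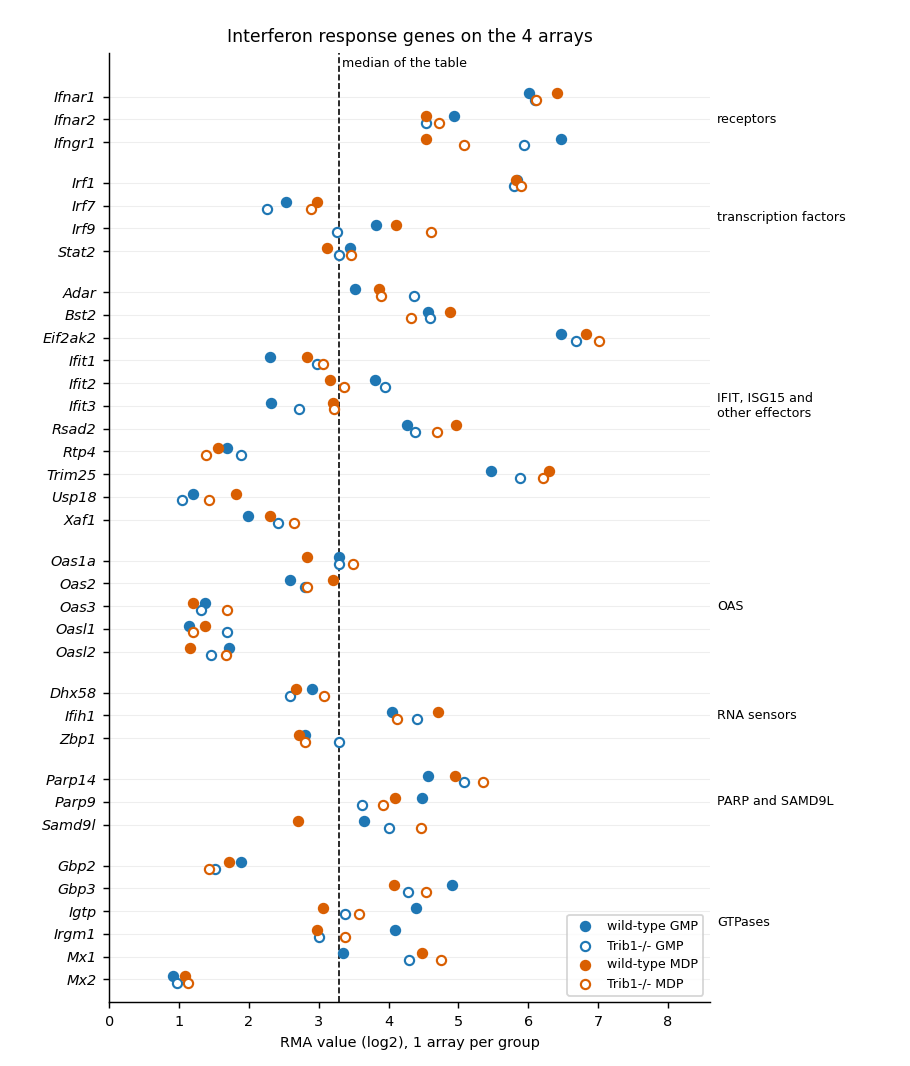
RMA value (log2, horizontal axis) of the 35 measured interferon response genes on the 4 arrays, 1 point per array, grouped by role. Filled points are wild type and open points Trib1-/-, blue for GMP and orange for MDP, and the dashed line is the median of the table at 3.29. A reader should see that Mx2, Usp18, Rtp4 and most Oas genes lie left of the line, and that Igtp, Irgm1, Gbp3 and Ifngr1 have their highest point in wild-type GMP and their lowest in wild-type MDP.

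In GMP, the knockout array had lower values of a pair of interferon-inducible GTPase genes, and the list as a whole lay near 0. Igtp and Irgm1 were the 2 members (5.71%) at least 2-fold apart, both lower, where 2.72% of all named genes were 2-fold apart and 2.22% were 2-fold lower. The median difference over the 35 members was 0.05 (all named genes -0.01), and 19 were above 0. Set beside the SD between probe sets, 17 members (48.6%) were further apart than 0.356, against 36.3% of all genes. That SD comes from probe sets at or above the median of the table, which only 20 of the 35 members reached by their mean. Of 13 members with several probe sets, 7 had all of them in 1 direction.

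The GTPases act on the membranes around intracellular microbes, and Irgm1 is also known to protect blood stem cells from interferon gamma. Irgm1 read 4.10 in wild-type GMP, 3.01 in knockout GMP, 2.97 in wild-type MDP and 3.37 in knockout MDP. The wild-type GMP array stood alone, 2.13-fold above the knockout (difference -1.09). Igtp read 4.40, 3.38, 3.06 and 3.58 in the same order, a difference of -1.02 in GMP. Gbp3, a guanylate-binding protein gene, read 4.90, 4.28, 4.08 and 4.54, lower in knockout GMP by 0.62. In all 3 genes wild-type GMP was highest and wild-type MDP lowest, with the knockout arrays between. Each was read from 1 probe set. The knockout value of Irgm1 lay below the median of the table, and with such values raised to it the difference was -0.81, while that of Igtp stayed at -1.02. Centring the arrays on their expressed genes took both GTPase genes below 2-fold and brought Mx1 above it. It also moved the median of all genes by 0.11 and the share of 2-fold genes that were lower from 81.6% to 59.1%.

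Mx1 went the other way. It encodes an antiviral dynamin-like GTPase, of which most laboratory strains carry a defective allele. It read 3.35 in wild-type GMP, 4.29 in knockout GMP, 4.48 in wild-type MDP and 4.75 in knockout MDP, so that wild-type GMP stood below the other arrays. The GMP difference of 0.93 falls just short of 2-fold. Mx2 stayed between 0.92 and 1.12 and Gbp2 between 1.43 and 1.89 on the 4 arrays, below the median of the table throughout.

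Among the other effectors, 10 of 11 read higher in knockout GMP, with a role median of 0.22, while 48.9% of all named genes were above 0. Of the 11, 5 stayed below the median of the table on every array. The furthest was Adar, which encodes an enzyme that edits double-stranded RNA and so keeps self RNA from being sensed. It read 3.52 in wild-type GMP, 4.37 in knockout GMP, 3.86 in wild-type MDP and 3.89 in knockout MDP. Knockout GMP was the high array, with a difference of 0.85 in GMP. The other probe sets of Adar, both below the median of the table in GMP, read 0.29 and -0.63, so the direction depends on the probe set. Trim25, the gene of a ubiquitin ligase of antiviral signalling, read 5.47, 5.89, 6.30 and 6.21 in the same order, a difference of 0.42 in GMP. Its other probe sets read 0.85 and 0.16, in the same direction. Ifit1, whose product binds foreign RNA, read 2.30, 2.98, 2.83 and 3.06, and its difference of 0.68 lies wholly below the median of the table. Ifit3 read 2.32, 2.71, 3.20 and 3.23. Usp18, which restrains receptor signalling, was the 1 effector below 0 (-0.15), and lay between 1.05 and 1.82 on all arrays.

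The oligoadenylate synthetases, which activate RNA decay, were near background, so their genotype differences say little: Oasl1 had the largest in GMP (0.54), between values of 1.15 and 1.69. Of the RNA sensors, only Ifih1, which encodes MDA5, was above the median of the table on every array. It read 4.06 in wild-type GMP, 4.41 in knockout GMP, 4.71 in wild-type MDP and 4.12 in knockout MDP, higher by 0.35 in knockout GMP. Zbp1, the sensor gene of Z-form nucleic acid, had a larger GMP difference (0.49), with only its knockout GMP value (3.30) reaching the median of the table. With low values raised to that median the Zbp1 difference was 0.0097. Its second probe set, below the median of the table, read -0.32. Parp9, a gene of the ADP-ribosyltransferase family, read 4.48, 3.62, 4.09 and 3.93. Its highest array was wild-type GMP and its lowest knockout GMP (-0.86). Parp14 read 4.57, 5.08, 4.96 and 5.36, higher by 0.51 in knockout GMP, though its second probe set read -0.05.

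The receptors and factors, which carry the signal, stayed less than 2-fold apart in GMP. Ifngr1 read 6.48 in wild-type GMP, 5.94 in knockout GMP, 4.53 in wild-type MDP and 5.08 in knockout MDP. Both GMP arrays lay above both MDP arrays, and the GMP genotypes differed by -0.53. Ifnar1 hardly varied, at 6.004, 6.10, 6.41 and 6.12. Ifnar2 read 4.94, 4.53, 4.54 and 4.72, with a GMP difference of -0.41, and its other probe sets read 0.54 and -0.37. All 4 transcription factor genes were below 0 in GMP, as were 50.9% of all named genes. Irf9 had the largest difference (-0.56), from 3.81 to 3.26, and Irf7, which drives interferon production, differed by -0.28 below the median of the table. Stat2 differed by -0.16, while its second probe set, below the median of the table, read 0.75. Irf1 differed by -0.05, a direction that centring the arrays reversed.

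Markers of another cell type moved with the GMP genotype. The summed linear signal of 7 basophil and mast cell markers was 483 on the wild-type GMP array against 200 on the knockout one. At least 2-fold lower were 4 of the 7, against 2.22% of all named genes. On the knockout GMP array, the spiked-in BioB and BioC controls were also higher, by a median of 0.37. Wild-type GMP was the lowest array for all 10 of these control probe sets, and wild-type MDP stood above it by a median of 0.63. The part of the markers and controls in the genotype and progenitor differences was not tested.

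In MDP, the clearest difference was a single gene. Samd9l was 3.40-fold higher in knockout MDP and was the 1 member (2.86%) at least 2-fold apart, where 2.37% of all named genes were 2-fold apart and 0.923% were 2-fold higher. Samd9l encodes an interferon-induced protein that restricts viruses and restrains blood cell growth. It read 3.65 in wild-type GMP, 4.0001 in knockout GMP, 2.70 in wild-type MDP and 4.47 in knockout MDP. The wild-type MDP array was the low one and lay below the median of the table, and with it raised there the difference was 1.18 in place of 1.77. Samd9l has 1 probe set here.

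Over the list, 23 of 35 members (65.7%) were above 0 in knockout MDP, against 48.5% of all named genes, with a median of 0.18 (all named genes -0.01). The median was 0.07 when the probe sets of a gene were averaged, and 0 with low values raised to the median of the table. Of the 13 members with several probe sets, 6 had all in 1 direction. Knockout MDP held the highest value of 14 members (40%), against 23.99% of all genes, and the lowest of 3 (8.57%), against 23.4%.

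Members higher in knockout MDP included 5 that were lower in knockout GMP. Ifngr1 was higher by 0.55, Igtp by 0.51, Irf9 by 0.49, Gbp3 by 0.45 and Irgm1 by 0.40. The wild-type MDP values of Igtp and Irgm1 were below the median of the table, and once raised to it the differences were 0.29 and 0.087, within the SD between probe sets. Oas1a was the furthest of its family at 0.65, with values of 3.30, 3.30, 2.84 and 3.48 in wild-type GMP, knockout GMP, wild-type MDP and knockout MDP. The wild-type MDP value was below the median of the table, and the difference was 0.20 once raised. Parp14 was higher by 0.40 and its second probe set by 0.64. Eif2ak2, which encodes PKR, the kinase that stops translation on double-stranded RNA, read 6.47, 6.69, 6.83 and 7.02 in the same order. It was higher by 0.19 in knockout MDP, and its other probe sets by 0.52 and 1.28. The last rose from 2.52 in wild-type MDP, below the median of the table, to 3.80.

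Members lower in knockout MDP were fewer. Ifih1 differed by -0.59, from 4.71 to 4.12, and Bst2, the gene of tetherin, which holds budding virus at the cell surface, by -0.56. Bst2 read 4.56, 4.60, 4.88 and 4.33 over the arrays in the same order, with knockout MDP the lowest. Rsad2, which encodes viperin, read 4.26, 4.38, 4.97 and 4.70. Its MDP difference was -0.27 and that of its second probe set -0.50, while the remaining one, below the median of the table, read 0.67. Ifnar1 differed by -0.29 and its second probe set by -0.47.

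Macrophage markers moved with the MDP genotype. The summed linear signal of 10 resident macrophage markers was 477 in wild-type MDP and 99.9 in knockout MDP. At least 2-fold lower were 9 of the 10, against 1.45% of all named genes. Plasmacytoid dendritic cells, which express Bst2 and Irf7 strongly, were followed through 7 markers, whose sum was 629 in wild-type MDP and 611 in knockout MDP. The sum is mostly Tcf4 (8.80 and 8.84), and 5 of the 7 read lower in knockout MDP, with a median of -0.25 and Siglech at -0.61. The part of either cell type in the MDP values was not tested.

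**Figure D2:**
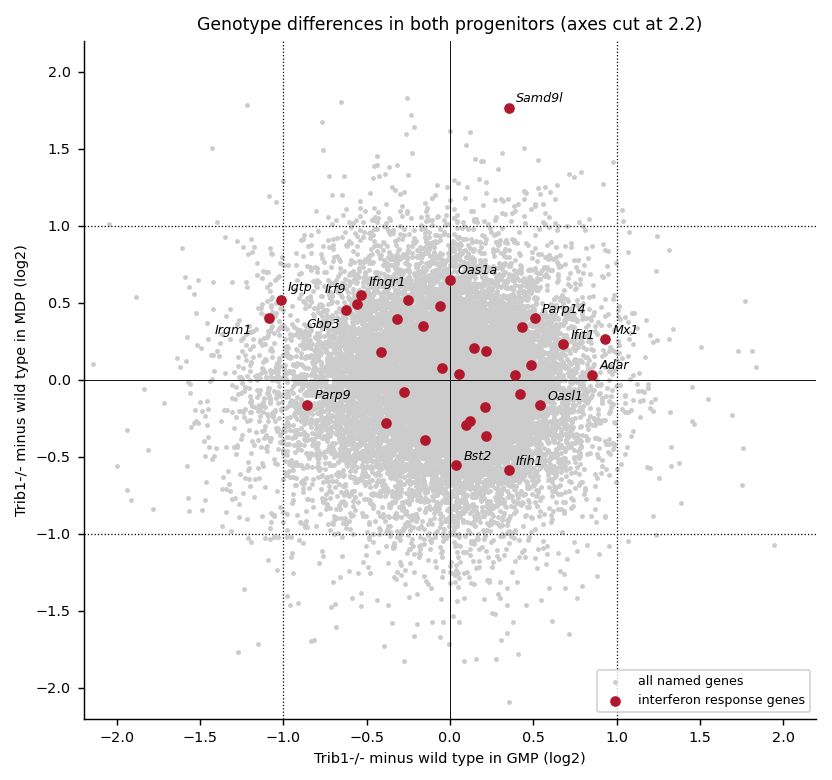
Trib1-/- minus wild type (log2) in GMP on the horizontal axis and in MDP on the vertical axis, each from 1 array per genotype, for all named genes (grey) and the 35 interferon response genes (red, the further ones named). Dotted lines mark 2-fold and genes beyond 2.2 are not drawn. A reader should see Samd9l as the 1 red point above the upper line, Igtp and Irgm1 left of the left line and above 0 in MDP, and Mx1 and Adar to the right.

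The genotype differences in GMP and MDP, which share no array, were set side by side. For 5 members, Ifngr1, Irf9, Gbp3, Igtp and Irgm1, the knockout was lower in GMP and higher in MDP, each by more than the SD between probe sets. That is 14.3% of the members, against 3.68% of all named genes. With low values raised to the median of the table, it held for 3 members (8.57%), Ifngr1, Irf9 and Gbp3, against 2.40% of all named genes. Opposite signs of either order were found for 6.81% of all named genes and for no further member. Ifih1 had the reverse order, 0.353 in GMP and -0.589 in MDP, with its GMP difference just below the SD of 0.356. Of the 5 members, 4 are known for a place in the response to interferon gamma, as its receptor chain or as GTPase targets. Irf9 belongs mainly to the type I response. The grouping was made after the values were seen. Irf1 and Gbp2, members also known for the interferon gamma response, did not share the pattern. Irf1 read -0.05 in GMP and 0.07 in MDP, and Gbp2 -0.38 and -0.28, near background. For Ifngr1, Gbp3, Igtp and Irgm1, and for Oasl2 near background, wild-type GMP was the highest array and wild-type MDP the lowest, an order found for 14.3% of members and 13.1% of all named genes. The order by itself is thus as frequent among all genes as in the list.

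Between the progenitors, Ifngr1 was the member furthest apart, lower in MDP. In wild type 4 members (11.4%) were at least 2-fold apart, 1 higher and 3 lower, and 11.5% of all named genes were 2-fold apart (3.26% higher and 8.25% lower). Ifngr1 was 3.85-fold lower in wild-type MDP (-1.95), Igtp 2.52-fold (-1.33) and Irgm1 2.18-fold (-1.12), while Mx1 was 2.19-fold higher (1.13). These differences use the same wild-type GMP array as the genotype differences in GMP, the lowest on the BioB and BioC controls. With low values raised to the median of the table, Irgm1 was at -0.81 and Igtp at -1.11. In the knockout Irf9 was the 1 member (2.86%) 2-fold apart, 2.54-fold higher in MDP (1.34), where 4.9% of all named genes were 2-fold apart, 2.06% higher and 2.84% lower. Ifngr1 was lower in knockout MDP by 0.86 and Mx1 higher by 0.46.

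The 2 genotypes gave different orders of the progenitors for several members. Igtp, Irgm1 and Gbp3 were lower in MDP in wild type but read 0.20, 0.37 and 0.26 higher in the knockout. Samd9l was at -0.94 in wild type and 0.47 in the knockout. Among members with the same sign in both were Trim25 (0.84 and 0.32), Rsad2 (0.71 and 0.32), Parp14 (0.39 and 0.28), Eif2ak2 (0.36 and 0.33) and Ifit2 (-0.64 and -0.58). In wild type, the other probe sets of Trim25 read 1.21 and, below the median of the table, -0.28. That of Parp14 read -0.61, and those of Eif2ak2 read -0.30 and, below the median of the table, -0.24. The list's median was 0.17 for the wild-type pair of arrays and 0.20 for the knockout pair, beside 0.04 and -0.01 over all named genes, and 18 (51.4%) and 26 (74.3%) of the 35 members were higher in MDP, against 52.5% and 49.3% of all named genes. Whether the progenitors differ more in 1 genotype was not tested.

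**Figure D3:**
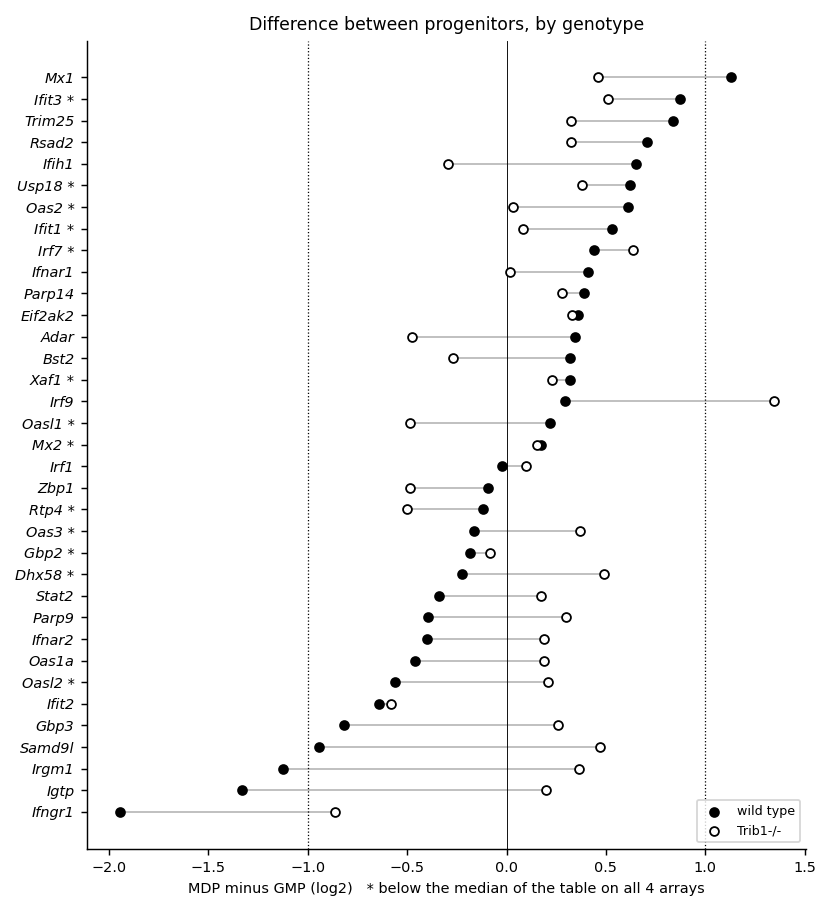
MDP minus GMP (log2, horizontal axis) for the 35 interferon response genes in wild type (filled) and Trib1-/- (open), each from 1 array per progenitor and joined by a line, in the order of the wild-type difference. Dotted lines mark 2-fold and a star marks genes below the median of the table on all arrays. A reader should see Ifngr1 lowest in both genotypes, Mx1 highest in wild type at 1.13 and Irf9 highest in the knockout at 1.34.

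The remaining genes of the pathway were read from 5 lists. Among the ligands, 7 of 10 measured genes stayed below the median of the table on all arrays, Ifnb1 and Ifng among them. None was 2-fold apart between genotypes, against 2.72% of all named genes in GMP and 2.37% in MDP. Ifnz, Ifna1 and Ifna5 read above the median of the table. Ifnz was the furthest in GMP (0.82), and in MDP Ifna5 (-0.42) and Ifnz (-0.39) were lower. Ifna1 and Ifna5 belong to a family of near-identical copies, so their probes may read one another.

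The receptor, kinase and signalling list had 11 measured genes, with medians of -0.24 in GMP and -0.10 in MDP. In GMP 1 was 2-fold lower, where 2.22% of all named genes were. It was Ptpn6 (-1.08), which encodes the phosphatase SHP-1 that damps cytokine signals. Ifngr2, the second chain of the interferon gamma receptor, was at -0.73, beside -0.53 for Ifngr1. Tyk2, a kinase of the type I receptor, was the furthest above 0 in GMP (0.48) and below it in MDP (-0.52) among those with a value at the median of the table. Jak2, a kinase of the interferon gamma receptor, read 0.58 in MDP and Jak1, which both receptors use, -0.43. Ptpn11 read 0.59 in MDP.

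The sensing list, genes that detect nucleic acid and start interferon production, had 14 measured genes with medians of 0.10 in GMP and -0.14 in MDP. Sting1, the adaptor of cytosolic DNA sensing, was 2-fold lower in knockout GMP (-1.20), where 2.22% of all named genes were 2-fold lower. Irf3, the factor activated through Sting1, read -0.89. Ddx58, which encodes the RNA sensor RIG-I, read 0.76, the same direction as Ifih1. In MDP no gene was 2-fold apart, against 2.37% of all named genes. Ikbke (0.57) and Tbk1 (0.47), kinases upstream of Irf3, were the furthest above 0, and Ddx58 (-0.40) and Sting1 (-0.33) the furthest below among those with a value at the median of the table.

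Of 37 further interferon-stimulated genes, 1 was 2-fold higher and 3 were 2-fold lower in knockout GMP, with a median of -0.04, where 0.5% of all named genes were 2-fold higher and 2.22% lower. The higher one was the chemokine gene Cxcl10 (1.33), from 2.15 in wild type, below the median of the table, to 3.48. With the low value raised to that median the Cxcl10 difference was 0.19, so its call is lost. Cxcl9 followed at 0.62. The lower ones were Ifi35 (-1.42), Sp100, a nuclear body gene (-1.03), and Ifitm3, which blocks virus entry (-1.02, named after its value was seen). In MDP 1 was 2-fold apart, Cmpk2 (-1.05), where 1.45% of all named genes were 2-fold lower, and the median was 0.01. Cmpk2 read 2.63 in knockout MDP, below the median of the table, and was at -0.39 once raised to it, so the call is lost. Trim30a (0.75) and Gbp7 (0.60) were the furthest above 0 among those with a value at the median of the table, and Cxcl10 was at -0.44.

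Genes of antigen processing lay mostly on 1 side. Of 10 measured, 1 was above 0 in knockout GMP (median -0.54) and 1 in knockout MDP (median -0.16), while 48.9% and 48.5% of all named genes were above 0. Psmb8, an immunoproteasome subunit gene, was 2-fold lower in GMP (-1.23), where 2.22% of all named genes were. Psme1, of the proteasome activator, differed by -0.9999 in GMP and -0.93 in MDP. Tap2, of the peptide transporter, was at 0.06 in GMP and -0.62 in MDP, and Psmb9 at 0.10 in MDP. All 10 were above the median of the table on every array.

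**Figure D4:**
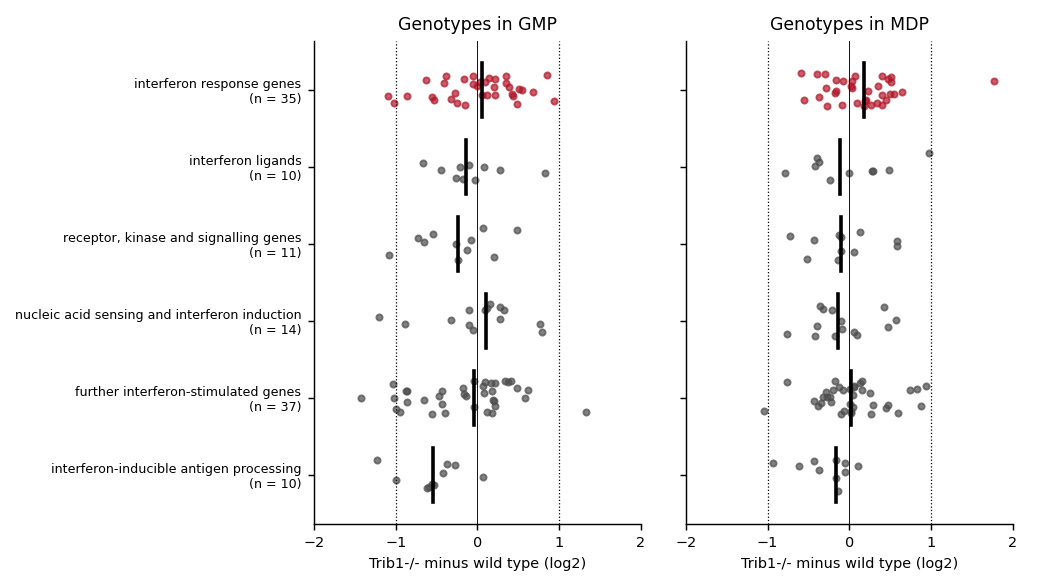
Trib1-/- minus wild type (log2, horizontal axis) in GMP (left) and MDP (right) for the interferon response genes (red) and 5 further lists of the pathway (grey), 1 point per gene, with the list's median as a bar and dotted lines at 2-fold. The vertical place of points within a list has no meaning. A reader should see the antigen processing genes mostly below 0 in GMP (median -0.54) and the interferon response genes centred near 0 (median 0.05), with Samd9l far to the right in MDP.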

How the data were processed

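Per the labels' protocols, Trizol RNA was amplified by the NuGEN Ovation system and labelled with biotin. The arrays are Affymetrix mouse arrays. The authors normalized the arrays with RMA, per the submitters' processing notes, which name no version. The deposited values were read as log2 values because of their range (0.14 to 14.5), as the file states no scale. Since RMA forces 1 distribution on all arrays, a change in total RNA per cell cannot be seen, and weak probe sets lie near the background, which makes their folds uncertain. Of 45101 probe sets, 64 were controls, 34945 had 1 symbol in the platform annotation, 932 had several and 9160 were not listed. The gene identifiers of 34741 were found in the RefSeq table and changed 0 symbols. The number of arrays limits the precision.

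Counts cover all measured members and all named genes, with no filter. All members are accounted for, with values on each array for those at least 2-fold apart with a compared value at the median of the table, for the member furthest apart in each of 7 roles and for further members of interest. The further lists are named by their 2 furthest genes in each direction among those with a compared value at the median of the table. Members and lists were chosen with earlier results of these data known. Alternatives were a filter on the mean or the highest value, low values raised to the median of the table, the mean of probe sets, leaving out suffixed probe sets, cyclic loess (limma 3.58.1, 3 iterations), centring, adding 32 to the linear value, and 1.5-fold and 4-fold sizes. Counting was tested on simulated data with added differences well beyond 2-fold, which checks the code and not the calls made here.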

Additional observations from a re-analysis of the deposited data

Results flagged for a closer look

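For 5 members the genotype differences in GMP and MDP had opposite signs, each beyond the SD between probe sets, and with 1 array per group this contrast was not tested. The difference in MDP minus that in GMP was 1.53 for Igtp, 1.49 for Irgm1, 1.08 for Gbp3, 1.08 for Ifngr1 and 1.05 for Irf9. With low values raised to the median of the table it was 1.31 for Igtp and 0.90 for Irgm1, whose MDP differences then lay within that SD. Opposite signs of this size were found for 14.3% of the members and 6.81% of all named genes.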

How the results depend on the processing

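Among the counts of members 2-fold apart, adding 32 to the linear values left 0 in GMP, 0 in MDP, 1 between the wild-type progenitors (Ifngr1) and 0 between the knockout ones. At 1.5-fold the counts were 7, 3, 13 and 3, and at 4-fold 0 in all 4 differences. In GMP 1 member, Igtp, was 2-fold apart with low values raised to the median of the table. Centring left 1, Mx1, which was not so as reported, and took Igtp to -0.91 and Irgm1 to -0.98. Without suffixed probe sets, 0 members were 2-fold apart between the knockout progenitors, since Irf9 has no other probe set. Cyclic loess changed no count by more than 1.5 times. Medians moved by over 0.1 as follows. With low values raised they were 0 in MDP and 0 in both differences between progenitors. With 32 added they were 0.0397 in MDP, 0.0101 between wild-type progenitors and 0.0428 between knockout ones. Centring gave 0.16 in GMP and 0.31 between wild-type progenitors, where it moved the median of all genes by 0.14, and the share of 2-fold genes lower in MDP went from 71.6% to 53.6%. Averaged probe sets gave 0.073 in MDP, and genes whose highest value reached the median of the table gave -0.0603 between wild-type progenitors. The cause of each shift was not tested. Of 432 recomputed values of single members, 391 stayed within the SD between probe sets, 41 moved further and 0 of those 2-fold apart reversed. Many of them could not move. Centring shifts all genes of a difference alike and by less than that SD, which fixes its 75 values. The 57 without suffixed probe sets were unchanged, since members read from a suffixed one drop out. Averaging cannot move a member with 1 probe set. The tally is therefore no measure of robustness. No paired analysis was possible because each group is 1 array, and for the same reason no array could be left out.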

Other observations

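Some relatives of the GTPase genes, chosen after their values were seen, had their highest value in wild-type GMP. Ifi47, an immunity-related GTPase gene, read 6.55 in wild-type GMP, 5.60 in knockout GMP, 4.62 in wild-type MDP and 4.68 in knockout MDP, so that both GMP arrays lay above both MDP arrays. Irgm2 read 2.96, 2.08, 1.68 and 2.62, in the order of Irgm1 but below the median of the table throughout. Gbp7 read 6.93, 6.79, 5.60 and 6.20, with wild-type GMP highest and wild-type MDP lowest. Others went otherwise: Iigp1 read 3.60, 3.82, 3.88 and 4.16, lowest in wild-type GMP, and Gbp6 read 2.56, 2.38, 2.87 and 2.88. The genes of the IFITM proteins, which block virus entry, differed between the GMP genotypes by -0.65 (Ifitm1), -0.87 (Ifitm2) and -1.02 (Ifitm3), and between the MDP genotypes by -0.07, -0.19 and 0.47.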
